A study of Mus musculus with 6 samples.

Results

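The nuclear genes for the subunits of oxidative phosphorylation were compared between C2C12 myotubes given Sardomozide and myotubes given the solvent DMSO. They were found by symbol, as the Nduf, Sdh, Uqcr, Cox4 to Cox8 and Atp5 families with Cyc1 and Cycs, and kept where at least 3 of the 6 libraries held at least 10 counts. Of the 24411 symbols measured, 87 matched by name and 81 were kept. All 81 were among the 13076 genes tested. They are 36 genes of complex I, 4 of complex II, 9 of complex III, 14 of complex IV, 17 of complex V and Cycs, the gene of cytochrome c. C2C12 is an immortalised mouse myoblast line, labelled wild type, whose cells fuse into myotubes in medium with little serum. Sardomozide blocks S-adenosylmethionine decarboxylase, the enzyme that Amd1 encodes and that supplies the aminopropyl groups of spermidine and spermine. Differentiated myotubes were kept in 10 µM Sardomozide or in DMSO for 72 h, and 3 libraries of each group were sequenced from total RNA.

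Oxidative phosphorylation takes place in the inner mitochondrial membrane. Complex I takes electrons from NADH and complex II from succinate, both pass them to coenzyme Q, complex III hands them to cytochrome c, and complex IV hands them to oxygen. Complexes I, III and IV pump protons as they do so, and complex V, the ATP synthase, lets the protons back and makes ATP. Contracting muscle draws most of its sustained ATP from this chain, and its fibres carry muscle forms of several complex IV subunits. Most subunits are encoded in the nucleus. The few encoded in mitochondrial DNA were not analysed here.

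Promoters of respiratory genes are known for sites of NRF1, of the ETS factor GABPA, of the oestrogen-related receptors and of YY1. The letters of these sites were searched on both strands in RefSeq windows of GRCm38.p6 that run from 250 bases before a gene's start to 50 bases after it. The table held 68 of the 81 genes. CGCANGCG, searched for NRF1, was in 26 of the 68 windows (38.2%), against 19.2% of the 10373 windows of tested genes and 9.22% of all 27025 windows. CCGGAAG, searched for GABPA, was in 16 of the 68 (23.5%), against 19.7% of tested genes and 9.93% of all windows. AANATGGCG, searched for YY1, was in 11 (16.2%), against 5.79% of tested genes and 2.76% of all windows. TCAAGGTCA, searched for the oestrogen-related receptors, was in 2 (2.94%), against 0.299% and 0.466%. Among the 8 genes called higher below that had a window, 4 held the NRF1 letters, namely Sdhd, Uqcrc1, Cycs and Cox6a1. A match of letters is not a measured binding site. Cycs and Cox6a1 are shown because both were called in every setting tried and carry the NRF1 letters before the start. The 250 bases before the start are printed 5′ to 3′ on the gene's strand, with capitals for the NRF1 letters and, in Cox6a1, also for the reverse complement of CCGGAAG, which overlaps neither NRF1 match. The Cycs bases lie at chr6:50566570-50566819 and the Cox6a1 bases at chr5:115348959-115349208, both on the minus strand.
Cycs promoter: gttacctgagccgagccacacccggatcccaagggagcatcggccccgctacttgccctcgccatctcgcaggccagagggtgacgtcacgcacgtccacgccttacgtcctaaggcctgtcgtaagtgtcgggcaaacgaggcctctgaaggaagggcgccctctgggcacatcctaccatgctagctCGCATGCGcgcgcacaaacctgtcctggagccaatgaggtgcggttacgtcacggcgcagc
Cox6a1 promoter: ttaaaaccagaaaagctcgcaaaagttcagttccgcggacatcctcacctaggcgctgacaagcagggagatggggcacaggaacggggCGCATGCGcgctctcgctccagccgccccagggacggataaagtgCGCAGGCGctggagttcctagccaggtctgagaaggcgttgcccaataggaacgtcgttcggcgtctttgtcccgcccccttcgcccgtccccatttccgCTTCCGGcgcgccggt

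The labels name the cell type as myoblasts, although the titles say myotubes. All 15 myotube markers were tested (1 higher, 2 lower), beside 7.88% of all tested genes called higher and 8.45% lower. Myog was higher (log2 fold change 0.24 ± 0.04, adjusted p 0.000547, edgeR). Myh8 (-0.63 ± 0.06, adjusted p 1.2e-06) and Myh2 (-0.59 ± 0.07, adjusted p 8.69e-05) were lower. These calls held without any single library. The 15 summed to 25260 to 26760 CPM (counts scaled to a common library size) with DMSO and 25110 to 28430 with Sardomozide. The highest sum was in Sardomozide replicate 2, where Ttn had 4043 CPM, against 1610 and 1372 CPM in Sardomozide replicates 1 and 3. The 9 markers of myoblasts and cycling cells, of which Mki67 was called higher (log2 fold change 0.16 ± 0.05, adjusted p 0.0443, edgeR), summed to 420.6 to 444.7 CPM with DMSO and 445.8 to 492.5 with Sardomozide. Adipocyte markers, 5 of 7 at 0 in all libraries, reached at most 0.064 CPM in sum. Of 3 tested osteoblast markers 2 were higher: Bglap2 had 2.16, 2.74 and 2.78 CPM with DMSO and 6.55, 6.83 and 6.82 CPM with Sardomozide (log2 fold change 1.39 ± 0.16, adjusted p 6.91e-06), and Bglap was under 1 CPM in all libraries (adjusted p 0.0241). Runx2, the other tested marker, was not called and went the other way (log2 fold change -0.10 ± 0.05, adjusted p 0.213, edgeR). It had 52.45, 52.45 and 53.8 CPM with DMSO and 49.7, 49.3 and 49.0 CPM with Sardomozide. The osteoblast list summed to 54.93 to 57.15 CPM with DMSO and 56.73 to 57.17 with Sardomozide. The call of Bglap2 held without any single library. Of the 6 fits without a library, that of Mki67 held only without Sardomozide replicate 1, with adjusted p values of 0.0943, 0.0886 and 0.16 without DMSO replicates 1, 2 and 3, and 0.231 and 0.0793 without Sardomozide replicates 2 and 3. It was also lost with DESeq2 (0.0597), limma-voom (0.0695), a replicate block (0.0518) and without robust estimation (0.0584). That of Bglap was lost without DMSO replicates 1 (0.0928) and 3 (0.102) and Sardomozide replicates 2 (0.0596) and 3 (0.0759), and with no filter (0.051). What part other cells had in the results below was not tested. Library totals ran from 25496323 to 36709804 counts. Amd1 had 3 counts in DMSO replicate 2 and 0 in the other libraries, so its transcript gives no check of the treatment. Whether the libraries stem from separate cultures is not in the labels, so the p-values below measure only the spread between these libraries. In these bulk libraries, fewer cells of a type and less RNA per cell cannot be told apart.

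Sardomozide myotubes had slightly higher levels of a minority of the subunit genes, and of none a lower level that passed the test. In the quasi-likelihood test of edgeR, with p adjusted by Benjamini-Hochberg over all tested genes and calls made at an adjusted p under 0.05, 12 of the 81 genes were higher and 0 lower, against 7.88% of all tested genes higher and 8.45% lower. The 12 are 14.8% of the 81. At an unadjusted p under 0.05 there were 17, of which 1, Ndufa3, was lower. The share of all tested genes at that unadjusted threshold is not given here, so this count has no background. The called genes were Ndufs1 of complex I, Sdhd of complex II, Cyc1, Uqcrc1 and Uqcrfs1 of complex III, Cycs, Cox4i1, Cox6a1 and Cox8a of complex IV, and Atp5a1, Atp5b and Atp5f1 of complex V. Their rises were small, between 1.09-fold and 1.20-fold. The median log2 fold change of the 81 genes was 0.02, with 52 above 0 and 29 below, beside -0.000823 for all tested genes. Subunit genes are abundant, and among the 4445 genes with at least 50 CPM the shares called were 12.5% higher and 13.2% lower. Of the 63 subunit genes at that level, 12 (19.0%) were higher and 0 lower. In 18 of the 81 genes every Sardomozide library lay above every DMSO library, against 17.0% of tested genes, and in 2 every one lay below, against 16.5%.

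**Figure D1:**
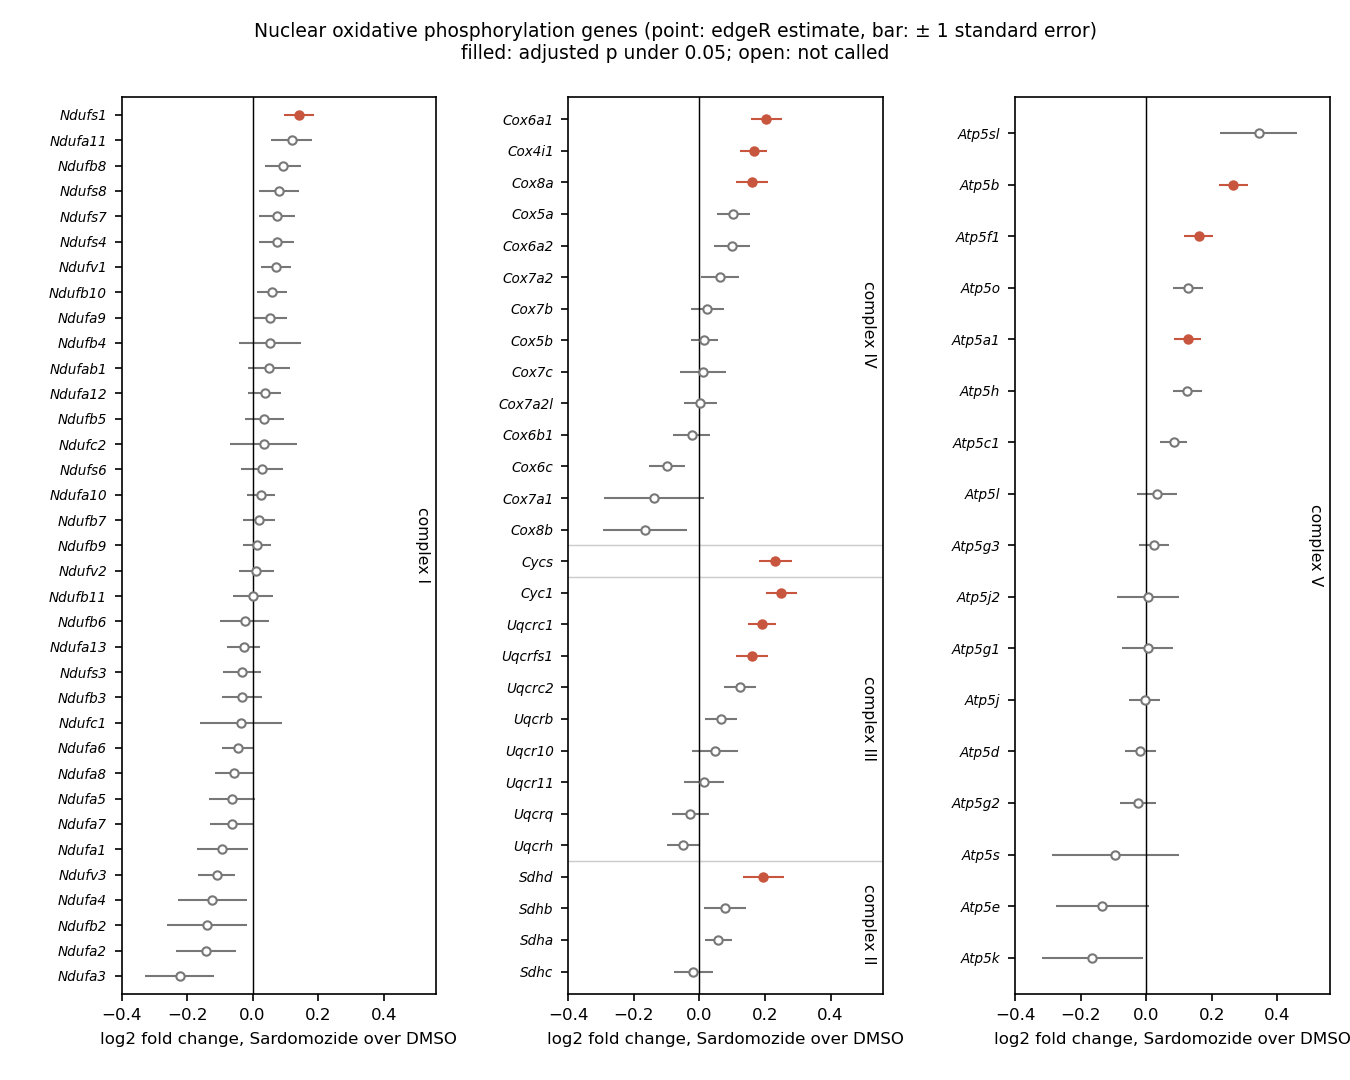
Estimated log2 fold change of Sardomozide over DMSO (horizontal axis, edgeR) for 80 of the 81 genes, grouped by complex, with bars of 1 standard error; filled points passed the adjusted p threshold of 0.05. The 12 filled points all lie right of 0, while the complex I genes spread on both sides of 0 with 1 filled point.

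Complex I is the largest complex and the entry point for NADH. Of its 36 genes 1 (2.78%) was higher and 0 lower, beside 7.88% and 8.45% of all tested genes. Their median log2 fold change was 0.01, which turned negative without DMSO replicate 3 (-0.0156), Sardomozide replicate 2 (-0.0109) or Sardomozide replicate 3 (-0.00327). Ndufs1 (chr1:63143596-63176833), which encodes the large iron-sulfur subunit of the electron-input arm, had 132, 142 and 128 CPM with DMSO and 147, 148 and 149 CPM with Sardomozide. The groups did not overlap, and the 3 Sardomozide libraries lay close together. Its log2 fold change was 0.14 ± 0.05 (SE), with an adjusted p of 0.0387 in edgeR's test. That call did not hold in 4 of the 6 fits without a library: the adjusted p was 0.137 without DMSO replicate 1, 0.194 without DMSO replicate 3, 0.0687 without Sardomozide replicate 2 and 0.0975 without Sardomozide replicate 3. Without robust estimation it was 0.0505.

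The 7 core subunits encoded in the nucleus, which make up the arm that takes electrons from NADH to the quinone, had a median log2 fold change of 0.07, with Ndufs1 the 1 called gene. Ndufv1, which binds the flavin, had 125, 124 and 122 CPM with DMSO and 123, 137 and 129 CPM with Sardomozide, and the groups overlapped. Among the 29 supernumerary subunits, which surround the core and have no redox cofactor of the chain, 0 were called and the median was 0.00183. The highest of these was Ndufa11 (43.0, 46.6 and 43.0 CPM against 44.8, 48.4 and 50.8 CPM, log2 fold change 0.12 ± 0.06) and the lowest Ndufa3 (-0.22 ± 0.11). Ndufa3 had 14.2, 15.3 and 14.1 CPM with DMSO and 10.7, 13.1 and 13.6 CPM with Sardomozide. All Sardomozide libraries of Ndufa3 were below the DMSO libraries, replicate 1 by most, yet the adjusted p was 0.163. Ndufv3 was the other gene without overlap downwards, at 52.4, 55.1 and 54.5 CPM against 49.2, 52.3 and 48.6 CPM (adjusted p 0.191). Ndufa9, Ndufb10, Ndufs7 and Ndufs1 were the complex I genes whose Sardomozide libraries all lay above the DMSO libraries. These 4 of the 36 genes stand beside 17.0% of all tested genes, and the 2 without overlap downwards beside 16.5%. Ndufa4, named as a complex I gene and now placed in complex IV, had a log2 fold change of -0.12 ± 0.11.

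Complex II, or succinate dehydrogenase, is also an enzyme of the citric acid cycle. All of its 4 genes were measured, and 1 (25.0%) was higher. Of all tested genes 7.88% were higher, and of those with at least 50 CPM 12.5%. The gene of the small membrane anchor that holds haem and the quinone site, Sdhd (chr9:50596357-50603812), had 90.5, 98.1 and 89.8 CPM with DMSO and 94.9, 115 and 109 CPM with Sardomozide. Sardomozide replicate 1 lay within the DMSO range, so the groups overlapped. The log2 fold change was 0.20 ± 0.06 (adjusted p 0.0436, edgeR). This call did not hold without DMSO replicate 1 (adjusted p 0.163), DMSO replicate 3 (0.156), Sardomozide replicate 2 (0.152) or Sardomozide replicate 3 (0.126), nor with limma-voom (0.059) or without scaling factors (0.0502). The flavin-bearing catalytic subunit Sdha had 280.4, 273 and 278 CPM against 297, 279 and 289 CPM. The iron-sulfur subunit Sdhb had 67.4, 69.7 and 62.9 CPM against 62.9, 76.2 and 72.3 CPM, and the other anchor gene, Sdhc, 89.2, 95.8 and 88.6 CPM against 81.3, 97.2 and 91.7 CPM. These 3 genes overlapped between groups and were not called, with log2 fold changes of 0.06 ± 0.04, 0.08 ± 0.06 and -0.02 ± 0.06.

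In complex III the genes of the nuclear-encoded electron-carrying subunits were higher, and so was Uqcrc1, which encodes a core protein. Of its 9 genes 3 (33.3%) were called, all higher, beside 7.88% of all tested genes and 12.5% of those with at least 50 CPM. The median log2 fold change of the 9 was 0.07. Both nuclear-encoded redox subunits were among the called genes. Cyc1 (chr15:76343523-76346260), which encodes cytochrome c1, had 158, 169.6 and 164 CPM with DMSO and 182, 204 and 199 CPM with Sardomozide. Uqcrfs1 (chr13:30540308-30545362), the Rieske iron-sulfur protein, had 80.2, 81.9 and 80.2 CPM against 85.9, 94.7 and 90.3 CPM. In both genes every Sardomozide library was above every DMSO library, and Sardomozide replicate 1 was the nearest to the DMSO libraries. Cyc1 rose by a log2 fold change of 0.25 ± 0.05 (adjusted p 0.00113, edgeR), which held in each of the 6 fits without a library, with adjusted p values up to 0.0134. Uqcrfs1 rose by 0.16 ± 0.05 on the log2 scale (adjusted p 0.0277, edgeR). It stayed called only without Sardomozide replicate 1: the adjusted p was 0.0931 without DMSO replicate 1, 0.0592 without DMSO replicate 2, 0.0889 without DMSO replicate 3, 0.114 without Sardomozide replicate 2 and 0.0683 without Sardomozide replicate 3.

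Uqcrc1 and Uqcrc2 encode the large core proteins on the matrix side of complex III. Uqcrc1 (chr9:108936633-108949623) had 176, 184 and 183 CPM with DMSO and 201, 212 and 206 CPM with Sardomozide, without overlap. It rose by 0.19 ± 0.04 on the log2 scale (adjusted p 0.0036, edgeR) and was called in every fit without a library, the highest adjusted p being 0.0314. Uqcrc2 had 111, 125 and 113 CPM against 123, 129.7 and 127 CPM. DMSO replicate 2 of Uqcrc2 lay above Sardomozide replicate 1, and the adjusted p was 0.093. Without DMSO replicate 2 it was 0.0305. The 5 supernumerary genes were not called and had a median log2 fold change of 0.01. They ran from Uqcrh, the hinge protein at the cytochrome c site, at -0.05 ± 0.05, to Uqcrb at 0.07 ± 0.05. Uqcrh had 121, 137 and 131 CPM with DMSO and 122, 124 and 129 CPM with Sardomozide, with overlap.

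Cycs (chr6:50562563-50566538), the somatic cytochrome c that shuttles between complexes III and IV, was also higher. It had 83.2, 88.5 and 78.0 CPM with DMSO and 97.7, 98.5 and 97.1 CPM with Sardomozide, and the 3 Sardomozide libraries were nearly equal. The mean went from 83.2 ± 5.21 (SD, n = 3) to 97.8 ± 0.669 CPM, or 17.4% higher. The log2 fold change was 0.23 ± 0.05 (adjusted p 0.00305, edgeR), and the call held without any single library, with adjusted p values up to 0.0299. Of the 75-base stretches in its exons, 26.1% also occur in other annotated genes, so reads may have been lost to or gained from copies.

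Complex IV, cytochrome c oxidase, had 3 higher genes of 14 (21.4%) and a median log2 fold change of 0.02. The share stands beside 7.88% of all tested genes and 12.5% of those with at least 50 CPM. All of its nuclear subunits are supernumerary, since its catalytic core is encoded in mitochondrial DNA. The gene of the main isoform of subunit 4, Cox4i1 (chr8:120668222-120674207), had 205, 214 and 213 CPM with DMSO and 232, 239.8 and 238 CPM with Sardomozide. The groups were well apart, and the log2 fold change was 0.17 ± 0.04 (adjusted p 0.00787, edgeR). Without DMSO replicate 1 the adjusted p was 0.0563, and the call held in the other 5 fits. The ubiquitous isoform of subunit 6a, Cox6a1 (chr5:115345642-115348981), had 118, 109.7 and 114 CPM against 132, 137 and 124 CPM. It rose by 0.20 ± 0.05 on the log2 scale (adjusted p 0.00558, edgeR) and was called without any single library, up to 0.0402. The ubiquitous isoform of subunit 8, Cox8a (chr19:7215153-7217616), had 89.2, 93.7 and 98.7 CPM against 106, 109 and 100.4 CPM. The groups of Cox8a were separated by less than the spread within either, and the log2 fold change was 0.16 ± 0.05 (adjusted p 0.0296, edgeR). Its adjusted p was 0.161 without DMSO replicate 1, 0.0847 without DMSO replicate 2, 0.0544 without Sardomozide replicate 1 and 0.101 without Sardomozide replicate 2. Cox5a was not called (126, 139 and 128 CPM against 131, 147 and 145 CPM), but had an adjusted p of 0.0341 without Sardomozide replicate 1. Cox5b had a log2 fold change of 0.02 ± 0.04.

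Muscle forms of complex IV subunits were measured beside their ubiquitous forms, since fibres switch between them as they mature. Cox6a2, the muscle form of subunit 6a, had 62.4, 69.8 and 66.9 CPM against 73.7, 67.4 and 72.5 CPM. Per length of exon it made up 37.6% ± 2.20 (SD, n = 3) of the Cox6a1 and Cox6a2 total with DMSO and 36.0% ± 2.09 with Sardomozide, with overlap. The muscle form Cox7a1 had 15.7% ± 1.29 of its total with Cox7a2 against 14.0% ± 0.711, also with overlap. Its own level was 5.67, 6.69 and 5.07 CPM against 4.66, 5.64 and 5.57 CPM, and that of Cox7a2 was 53.2, 58.0 and 53.4 CPM against 53.9, 57.9 and 60.3 CPM. The muscle form Cox8b had 7.79, 9.65 and 8.82 CPM against 6.86, 8.27 and 8.39 CPM, which was not called (log2 fold change -0.17 ± 0.13). Its share of Cox8a and Cox8b per length was 13.1%, 15.1% and 13.3% with DMSO and 10.0%, 11.6% and 12.6% with Sardomozide, so the shares of the groups did not overlap while the levels of Cox8b did. Cox7a2l, known as a factor that joins complexes III and IV, had a log2 fold change of 0.00307 ± 0.0511. Shares of 2 genes move when either gene moves, and no test was made of them.

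Complex V had 3 higher genes of 17 (17.6%), beside 7.88% of all tested genes and 12.5% of those with at least 50 CPM. The most abundant subunit gene was among the 3. The median log2 fold change of the 17 was 0.02, and -0.00557 without Sardomozide replicate 2. Atp5b encodes the catalytic beta subunit of the F1 head and Atp5a1 the alpha subunit that alternates with it in the ring. Atp5b (chr10:128083273-128090391) had 1435, 1493 and 1424 CPM with DMSO and 1782, 1755 and 1696 CPM with Sardomozide. The lowest Sardomozide library was above the highest DMSO library by more than the range within either group. Its mean was 1451 ± 36.9 CPM (SD, n = 3) with DMSO and 1744 ± 44.1 CPM with Sardomozide, or 20.2% higher, with a log2 fold change of 0.27 ± 0.04 (adjusted p 0.000256, edgeR). The highest adjusted p without a library was 0.00577. Atp5a1 (chr18:77773729-77782869) had 827, 839.6 and 831 CPM against 917, 926 and 883 CPM. It rose by 0.13 ± 0.04 on the log2 scale (adjusted p 0.0441, edgeR), and of the 6 fits without a library the call held only without Sardomozide replicate 3 (0.0476). The adjusted p was 0.143 without DMSO replicate 1, 0.092 without DMSO replicate 2, 0.146 without DMSO replicate 3, 0.0613 without Sardomozide replicate 1 and 0.109 without Sardomozide replicate 2. It was 0.0502 with a stricter filter and 0.0536 without robust estimation.

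The other F1 genes were not called. Atp5c1, the gamma subunit that turns inside the head, had 175, 178 and 176 CPM against 191, 188 and 183 CPM, without overlap (adjusted p 0.173). Atp5d and Atp5e, the delta and epsilon subunits at the foot of the stalk, had log2 fold changes of -0.02 ± 0.05 and -0.13 ± 0.14. The peripheral stalk, which keeps the head from turning, had 3 of 4 genes with all Sardomozide libraries above the DMSO libraries. Of all tested genes 17.0% had this pattern, and 1 of the 4 stalk genes was called. Atp5f1 (chr3:105942698-105960099), its b subunit, had 234, 246 and 229.7 CPM against 269, 269 and 254 CPM and rose by 0.16 ± 0.04 on the log2 scale (adjusted p 0.0147, edgeR). Without DMSO replicate 1 the adjusted p of Atp5f1 was 0.0675 and without DMSO replicate 3 it was 0.09. Atp5h and Atp5o had log2 fold changes of 0.13 ± 0.04 and 0.13 ± 0.05, with adjusted p values of 0.0567 and 0.0606. Without DMSO replicate 2 Atp5o was called (0.0468). The fourth stalk gene, Atp5j, had 100.2 ± 3.37 CPM (SD, n = 3) with DMSO and 99.8 ± 3.795 CPM with Sardomozide.

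The proton-carrying c ring is built from 1 protein that Atp5g1, Atp5g2 and Atp5g3 all encode. Their log2 fold changes were 0.00401 ± 0.0778, -0.02 ± 0.05 and 0.02 ± 0.04, and none was called. Atp5g3 had 288, 296 and 284 CPM with DMSO and 276, 306 and 299.9 CPM with Sardomozide, Atp5g2 139, 139 and 133 CPM against 121, 144 and 139 CPM, and Atp5g1 95.2, 95.7 and 82.0 CPM against 81.4, 99.0 and 93.4 CPM. In all 3 genes Sardomozide replicate 1 was the lowest library. Per length of exon Atp5g2 held 35.1% ± 0.259 (SD, n = 3) of the trio with DMSO and 34.3% ± 0.713 with Sardomozide. The 3 small membrane subunit genes were not called either, from Atp5k at -0.16 ± 0.15 (44.2, 56.1 and 42.4 CPM against 36.4, 42.1 and 49.3 CPM) to Atp5l at 0.03. Atp5sl, which the name pattern includes although its product is not an ATP synthase subunit, had the highest estimate of the 81 at 0.34 ± 0.12. It had 10.3, 8.996 and 8.92 CPM against 11.3, 13.7 and 10.8 CPM, without overlap, and an adjusted p of 0.0505 that became 0.0398 without Sardomozide replicate 3.

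**Figure D2:**
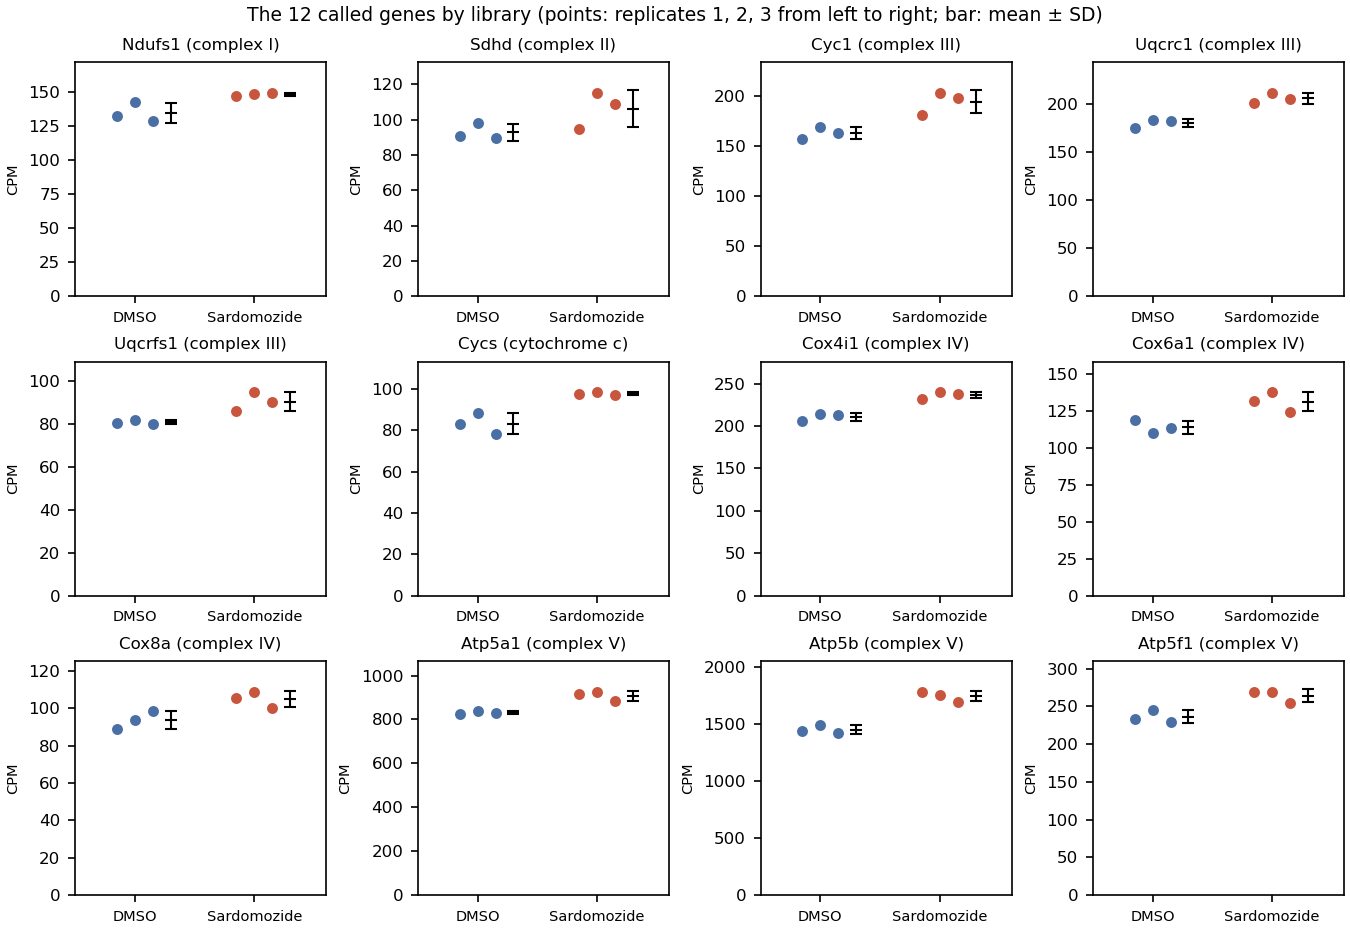
CPM (vertical axes, from 0) of the 12 called genes in each of the 6 libraries, with the mean and SD of the 3 libraries of a group as bars. The groups stand apart in 11 of the 12 panels, and in the Sdhd panel Sardomozide replicate 1 lies within the DMSO range.

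Summed over the 17 genes, complex V transcripts came to 4120.4, 4294 and 4093 CPM with DMSO and 4581, 4686 and 4521 CPM with Sardomozide. The groups did not overlap, and the sum was 10.2% higher with Sardomozide, most of it from Atp5b. For the other complexes the sums overlapped between groups. The sum was 0.723% higher for complex I (2543 ± 88.9 CPM with DMSO, SD, n = 3, and 2561 ± 93.8 with Sardomozide), 5.22% for complex II, 7.92% for complex III and 4.86% for complex IV. The called genes were also counted by role, beside 7.88% of all tested genes called higher and 12.5% of those with at least 50 CPM. Roles were assigned after the values had been seen. The called genes included 2 of the 2 redox subunits and 1 of the 2 matrix core proteins of complex III. Also among them were 2 of 5 genes of the F1 head and central stalk, 1 of 4 of the peripheral stalk and 3 of 13 complex IV supernumerary genes. They included 0 of the 29 supernumerary genes of complex I, 0 of 5 of complex III, 0 of 3 of the c ring and 0 of 3 of the membrane subunits of complex V. In roles of 3 or 5 genes a count of 0 is near the share of all tested genes. No test was made of the difference between roles.

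**Figure D3:**
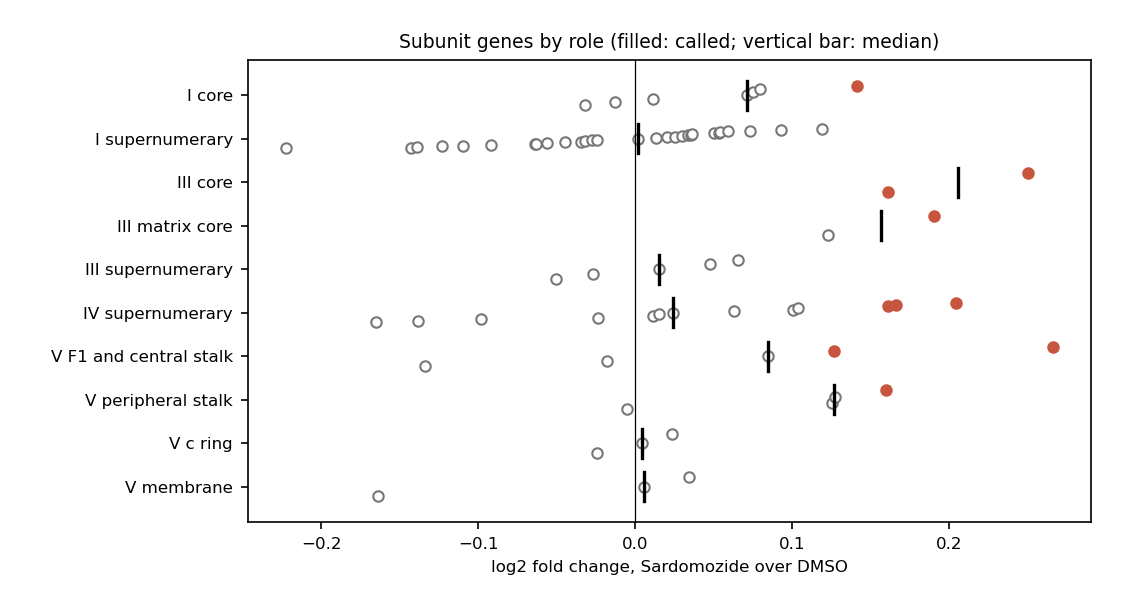
Estimated log2 fold change (horizontal axis, edgeR) of the genes of complexes I, III, IV and V (points), set out by the role of the subunit and without Cox7a2l, Atp5s and Atp5sl, with the median of each role as a bar and called genes filled. The redox subunits of complex III (III core) have the highest median of the roles drawn, and the supernumerary genes of complex I scatter around 0.

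The level of the median subunit gene differed between libraries of the same group. Against its mean over the DMSO libraries, the median gene of the 81 was at -0.02, 0.07 and -0.04 on the log2 scale in DMSO replicates 1 to 3 and at -0.03, 0.07 and 0.06 in Sardomozide replicates 1 to 3. Over all tested genes these medians were within 0.00386 of 0. Sardomozide replicate 1 had the lowest value of the 6 libraries in 34 of the 81 genes, and Sardomozide replicate 2 the highest in 32. DMSO replicate 2 was the highest in 27. The median difference between groups over all 81 genes was thus smaller than the differences between libraries of 1 group.

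Transcript length moved with this pattern. The 40 shorter subunit genes, with a principal transcript of at most 870 bases, had a median of -0.07 in Sardomozide replicate 1, and the 40 longer ones a median of 0.00271. All tested genes up to that length had a median of -0.06 in the same library. Of the shorter subunit genes 3 (7.5%) were called higher, and of the longer ones 9 (22.5%), against 5.04% and 8.19% of all tested genes in those lengths. Level moved with it too. The called genes had a median level of 160 CPM and a median length of 1562 bases, and the 69 others 75.9 CPM and 823.5 bases. Across the 81 genes, which share libraries, Spearman's rho of the log2 fold change was 0.44 with the mean CPM and 0.31 with length (80 genes with a gene model). What part length and level had in the calls was not tested. With each library's trend on length and GC content removed, 13 genes were called higher. That trend used the longest transcript, not the principal transcript used above, and level was not adjusted for.

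**Figure D4:**
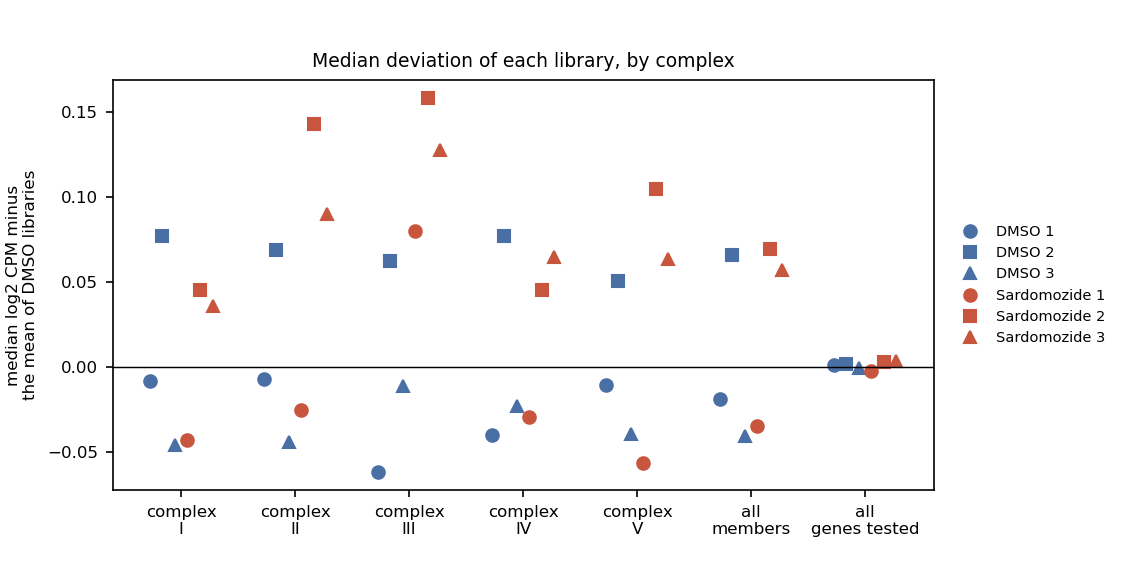
Median over the genes of each complex, all 81 genes and all tested genes, in each of the 6 libraries, of log2 CPM minus the mean of the DMSO libraries (vertical axis). For complex III all 3 Sardomozide libraries lie above the DMSO libraries (0.08, 0.16 and 0.13 against -0.06, 0.06 and -0.01), and for complexes I, II, IV and V Sardomozide replicate 1 lies among the DMSO libraries or below them.

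Genes that build or serve the chain were counted in lists of known assembly factors, enzymes and regulators. Of 54 tested assembly factors of the 5 complexes, 5 were higher and 1 lower, and their median log2 fold change was 0.09. The shares, 9.26% higher and 1.85% lower, stand beside 7.88% and 8.45% of all tested genes. Uqcc1, needed for cytochrome b of complex III, rose from 71.3, 75.3 and 72.2 CPM with DMSO to 87.1, 83.3 and 89.5 CPM with Sardomozide (0.25 ± 0.05, adjusted p 0.00152, edgeR). Sco1, a copper chaperone of complex IV, rose from 20.6, 21.6 and 20.4 CPM to 26.1, 27.0 and 27.1 CPM (0.35 ± 0.07, adjusted p 0.00221). Cmc2, another complex IV factor, rose by 0.52 ± 0.12 on the log2 scale (adjusted p 0.00541). These 3 calls held without any single library. Ndufaf1 of complex I (0.32 ± 0.09, adjusted p 0.0207) and Atpaf2 of complex V (0.24 ± 0.07, adjusted p 0.0314) were also higher, and Nubpl, an iron-sulfur factor of complex I, was lower (-0.44 ± 0.13, adjusted p 0.0255). Each of the last 3 was called in 2 of the 6 fits without a library. Ndufaf1 was lost without DMSO replicate 1 (0.0906) or 3 (0.0844) and without Sardomozide replicate 1 (0.0788) or 3 (0.0728). Atpaf2 was lost without DMSO replicate 1 (0.143) or 2 (0.0823) and without Sardomozide replicate 1 (0.0521) or 3 (0.0987). Nubpl was lost without DMSO replicate 1 (0.112), 2 (0.0513) or 3 (0.0523) and without Sardomozide replicate 1 (0.103).

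Coenzyme Q, the lipid that carries electrons to complex III, is made by its own set of enzymes. Of 13 tested genes of that set 3 (23.1%) were higher and 1 (7.69%) lower, beside the same 7.88% and 8.45%. Coq9, a lipid-binding partner in the pathway, rose from 105, 115 and 112 CPM to 131, 136 and 131 CPM (0.26 ± 0.05, adjusted p 0.000547, edgeR), and Adck3 (Coq8a), a kinase-like regulator, fell from 139, 143 and 146 CPM to 125, 123 and 120.3 CPM (-0.22 ± 0.04, adjusted p 0.00139). Both calls held without any single library. Pdss2, of the side-chain synthase, rose by 0.43 ± 0.11 (adjusted p 0.012), and was lost without DMSO replicate 3 (0.0513) or Sardomozide replicate 1 (0.0553). The methyltransferase gene Coq3 rose by 0.33 ± 0.09 (adjusted p 0.0179), and was lost without DMSO replicate 1 (0.0952) or Sardomozide replicate 2 (0.0675). The 3 tested carriers that bring phosphate and ADP to complex V (Slc25a3, Slc25a4 and Slc25a5) were not called and had log2 fold changes between -0.10 and 0.04.

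Among 14 regulators of respiratory genes 4 (28.6%) were higher and 1 (7.14%) lower, beside 7.88% and 8.45% of all tested genes. Ppargc1a, the coactivator PGC-1alpha, had 2.40, 2.74 and 3.02 CPM with DMSO and 5.29, 5.87 and 5.51 CPM with Sardomozide. The groups were far apart at this low level, with a log2 fold change of 1.02 ± 0.17 (adjusted p 0.000227, edgeR). Polrmt, the mitochondrial RNA polymerase, rose from 57.9, 56.0 and 58.2 CPM to 69.7, 68.1 and 72.9 CPM (0.29 ± 0.05, adjusted p 0.000528). Esrrb, an oestrogen-related receptor, fell from 2.95, 3.39 and 3.59 CPM to 2.06, 1.96 and 1.28 CPM (-0.90 ± 0.23, adjusted p 0.00953). These 3 calls held without any single library. Yy1 rose by 0.21 ± 0.06 (adjusted p 0.016) and was lost without Sardomozide replicate 1 (0.0824) and without DMSO replicate 2 (0.0938) or 3 (0.0517). Ppargc1b rose by 0.24 ± 0.08 (adjusted p 0.0455) and was lost without Sardomozide replicate 2 (0.188) or 3 (0.0886) and without DMSO replicate 1 (0.177) or 2 (0.159). It was also lost with DESeq2 (0.0563), limma-voom (0.064) and without robust estimation (0.053). Nrf1, Gabpa, Tfam and Esrra, the other factors most often named for these genes, were not called, with log2 fold changes of 0.05, 0.11, 0.03 and -0.08.

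The 6 genes that matched by name and were not kept had few counts or none. Ndufa4l2 was just outside, with 6, 6 and 12 counts in DMSO replicates and 16, 6 and 8 counts in Sardomozide replicates, and the lowest genes inside were Atp5s with 85 to 142 counts and Cox7a1 with 144 to 215. Cox4i2, Cox6b2 and Cox7b2 had at most 6 counts in a library, and Cox8c and Ndufs5 had 0 in all 6. Where no count was seen, a level of up to 3 counts remains possible (0.0817 to 0.118 CPM by library), by counting error alone. Ndufs5 is a complex I subunit, and 24.1% of the 75-base stretches of its exons occur in other annotated genes. Among the 81 kept genes, 9 had more than 20% of such stretches shared. Why Ndufs5 had 0 counts was not tested. Of the 12 called genes, such sharing also touched Cox4i1 (11.6%), Ndufs1 (4.06%), Atp5f1 (2.65%) and Cox6a1 (1.65%). Exons of Atp5a1, Atp5f1, Cox4i1 and Ndufs1 overlap a gene on the other strand. The sources used here do not say how such reads were counted.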

How the data were processed

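RNA from 6 libraries of C2C12 myotubes, 3 per group, was sequenced with paired reads of 150 bases, per the labels' protocols. For each library the authors deposited raw counts of reads by gene symbol. GRCm38, mm10, STAR, StringTie and DESeq2 are named in the submitters' processing notes. Versions, roles, annotation and strandedness were not given in the sources used here. Groups came from the labels. Counts were filtered with filterByExpr (at least 10 counts, 15 in total), scaled by TMM (factors 0.994 to 1.01) and tested with edgeR 4.0.16 (R 4.3.3; robust quasi-likelihood fit, treatment as the single term, two-sided), with Benjamini-Hochberg adjustment over 13076 genes. CPM uses the scaled library sizes; errors are standard errors after log2 fold changes and standard deviations over 3 libraries elsewhere. Depth was 25496323 to 36709804 counts.

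Coordinates, lengths and shared 75-base stretches came from GENCODE M21 (GRCm38), which held 80 of the 81 genes, and promoters from RefSeq (GRCm38.p6). Full values were given for every called gene, the highest and lowest of each complex, the isoform pairs and complex II, and, in each list, up to 4 called genes taken by adjusted p. Other subunit genes named, such as those without overlap between groups, and the uncalled regulators, were added with their values known. The single values of 1 complex I gene are not reported here. The genes and lists were chosen with earlier results of these data known, and roles were assigned from general knowledge after the values had been seen. Alternatives were RLE, upper-quartile and no scaling, DESeq2 1.42.0, limma-voom 3.58.1, no filter and a stricter filter, a replicate block, estimation without robustness, removal of length and GC trends, counts of established subunits without Cox7a2l, Atp5s and Atp5sl, and leaving out each library. Shares on principal transcripts, Ndufa4 counted with complex IV, and the background of genes with at least 50 CPM were alternatives chosen after seeing the data. Simulated counts were used to test the edgeR fit with treatment alone, the replicate block, DESeq2 and limma-voom. The other fits were not tested in this way.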

Additional observations from a re-analysis of the deposited data

How the results depend on the processing

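None of the 81 genes was called lower in any setting run, and no called gene changed direction. Outside the fits without a library, 9 to 14 of the 81 genes were called higher. Without a library the number ran from 5 (without DMSO replicate 1) to 11, with 7 without DMSO replicate 3 and 7 without Sardomozide replicate 2. Calls over all genes ran from 1326 (without DMSO replicate 1) to 1952, beside 2135 from all libraries. In those fits complex I had 0 to 1 called genes, complex II 0 to 1, complex IV 1 (without DMSO replicate 1) to 3, and complex V 1 (without DMSO replicates 1 or 3) to 4. Without a library the median log2 fold change of complex I ran from -0.0156 (DMSO replicate 3) to 0.0349 (DMSO replicate 2), of complex II from 0.0491 (DMSO replicate 3) to 0.103 (Sardomozide replicate 1), of complex III from 0.0283 (DMSO replicate 1) to 0.122 (Sardomozide replicate 1), of complex IV from 0.00972 (DMSO replicate 3) to 0.0729 (DMSO replicate 2) and of complex V from -0.00557 (Sardomozide replicate 2) to 0.0832 (DMSO replicate 2). The sign of single estimates was followed across settings for only some of the 81 genes. Among those, uncalled estimates near 0 changed sign in at least 1 setting for Sdhc, Cox6b1, Cox7a2l, Atp5g1, Atp5g2 and Atp5g3. With the length and GC trends removed Atp5g2 went from -0.02 to 0.02. Complex I had 0 called genes with a replicate block and 0 without robust estimation. Complex II had 0 without scaling factors and 0 with limma-voom. Complex V had 5 with no filter, which added Atp5o and Atp5sl. In their deviations from the group means, same-numbered libraries correlated at -0.02 to 0.02, and 1 of 6 correlated best with its own number. Whether same-numbered libraries shared a culture or a batch was not tested. With the replicate block 1820 genes were called and 9 of the 81 were higher, with Ndufs1, Cox8a and Atp5a1 lost. Cyc1, Uqcrc1, Cycs, Cox6a1 and Atp5b were called in every setting. Per-length shares of Atp5g1 in its trio were 7.95% on all exons and 3.18% on the principal transcript with DMSO, so levels between isoform genes depend on the gene model. Depth did not limit the called genes, which had at least 2039 counts in every library, while the 6 genes left out had too few counts for a test.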
